A study of Mus musculus with 3 samples.

Results

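The 34 genes described here build or feed the mTOR kinase complexes. They encode the subunits of mTORC1 and mTORC2, the Rag GTPases and Ragulator, the GATOR complexes, and the kinases above and below them. Their RNA was measured in cells sorted as follicular regulatory T (Tfr) cells. The list was given by symbol, and a probe set counted where the platform annotation tied it to a single gene on that list. Of the 34 genes, 32 had such a probe set, with 75 probe sets among the 45101 on the array. Rragb and Rps6kb1 had none, and their RNA is not analysed here. A level filter kept 64 of the 75 probe sets, standing for 31 genes; Prr5, whose probe set read 9.78, 9.27 and 8.45 on the 3 arrays, was left out by it.

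The arrays held RNA of cells sorted as Tfr cells from spleens of C57BL/6 mice 8 days after OVA immunization. The WT group was 1 array from a pool of 4 wild-type mice. The Rptor-null group was 2 arrays, each from a separate pool of 8 CD4-Cre-Rptorfl/fl mice, in which Cre under the CD4 promoter acts in the T cell lineage as a whole and not in Tfr cells alone. The sort, on lineage-depleted cells, used antibodies to CXCR5, CD25, GITR, CD44 and CD4. Neither the age nor the sex of the mice, nor whether the wild-type mice carried Cre or a floxed allele, was given in the labels. With 1 WT array, no error can be put on a WT value; Rptor-null values are given for each pool or as mean ± SD (n = 2).

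mTOR is a kinase that works in a pair of complexes sharing mTOR and mLST8. Raptor, encoded by Rptor, defines mTORC1, which drives protein, lipid and nucleotide synthesis, and rictor defines mTORC2, which phosphorylates AKT. Amino acids bring mTORC1 to the lysosome through the Rag GTPases, which the Ragulator complex anchors there; GATOR1 switches RagA and RagB off, GATOR2 opposes GATOR1, and folliculin with its FNIP partners acts on RagC and RagD. At the lysosome the GTPase Rheb activates the kinase. In regulatory T cells raptor is known to be needed for suppressive function. The comparison asks how RNA of the remaining machinery differed where Rptor was floxed.

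Among the 64 kept probe sets 3 were lower in the Rptor-null pools and 0 higher, and 61 did not pass the test. The 3 were the single probe sets of Sec13, Rraga and Nprl2. No subunit of mTORC1 or mTORC2 passed, and no Ragulator subunit, Rheb, AKT, PDK1 or S6 kinase probe set passed. The test was limma with Benjamini-Hochberg adjustment over all 27022 kept probe sets at a threshold of 0.05, and at an unadjusted p under 0.05 the same fit gave 5 member probe sets higher and 11 lower, near the share over all kept probe sets, 8.57% higher and 16.4% lower. Across the array it called 6.11% of probe sets lower and 2.81% higher, so that the members' share of calls, 4.69% in either direction, was not above the background. Without a trend of variance on level, limma called 1 probe set higher and 1 lower on the whole array, and 0 of the members.

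The median log2 difference over the 64 probe sets was 0.023, beside -0.029 over all kept probe sets. Both Rptor-null arrays were above WT for 29 member probe sets (45.3%, against 35.8% of all kept probe sets) and both below WT for 27 (42.2%, against 43.9%). A difference of at least 1.5-fold in the same direction on both Rptor-null arrays was met by 0 member probe sets upward, where 2.49% of the array met it, and by 1 downward, that of Sec13, where 4.52% did. The largest member difference in either direction was the 1.72-fold of Sec13. All differences are on the log2(intensity + 16) scale, which understates changes of dim probe sets.

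**Figure D1:**
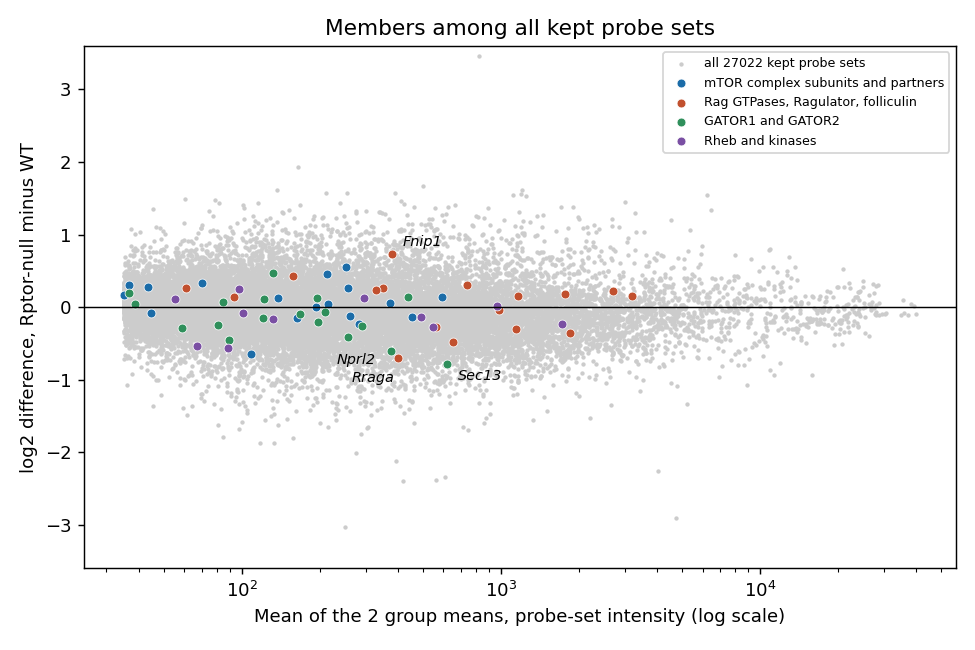
The log2 difference between Rptor-null and WT (vertical) is plotted against the mean of both group means in intensity units (horizontal, log scale) for the 27022 kept probe sets in grey and the 64 member probe sets in colour by group. The members lie between -0.78 (Sec13) and 0.74 (Fnip1), inside the bulk of the array.

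Because the only residual degree of freedom was that between the 2 Rptor-null arrays, the spread of the WT array was taken to equal theirs, and a deviation of that array alone would move every difference given here. RNA quality and markers of other cells also differed between the arrays. The Gapdh control probe sets gave a 3'/5' ratio of 1.11 (WT), 1.94 and 2.58 (Rptor-null), and those of beta-actin 1.40 (WT), 2.65 and 2.87. Of the macrophage markers 12 of 16 were higher and 0 lower (summed intensity 50184 in WT, 70782 and 79095 in Rptor-null pools), and of the basophil markers 4 of 8 were higher and 0 lower (1376, then 2543 and 2982). Of the T cell markers 6 of 11 were lower and 0 higher (51246, then 35452 and 34755), and of 9 Tfr markers 5 were lower and 0 higher (22512, then 13759 and 11920). The B cell list had 0 of 6 called, the neutrophil list 1 higher of 8 (Mmp8), the dendritic cell list 2 lower of 7 (Bst2 and Cd209a), the list of NK and CD8 T cell genes 1 higher (Eomes) and 1 lower (Cd8b1) of 7, and the erythroid list 0 of 2. No marker had a value of 0 on any array. Markers of other cells were bright on the WT array too: Lyz2 read 14972, Csf1r 7911 and S100a8 7644, beside 12582 for Cd3d. The neutrophil list summed to 22146 in WT and 20454 and 20978 in the pools. Levels are not comparable between genes, so these values give no share of cells. Member intensities are those of the whole sorted sample and need not come from Tfr cells alone. Foxp3 read 752 in WT and 587 and 423 in Rptor-null pools, not past the test. Of the sort markers, Cxcr5 (713, then 374 and 392, limma adjusted p = 0.0152) was lower. So was Tnfrsf18, for GITR (3837, then 1549 and 1453, limma adjusted p = 0.00708). Il2ra, for CD25, and Cd4 did not pass. Cd44 was on none of the marker lists and was not examined. No detection call was used, so these readings do not settle which cells were present. The part of these differences in the results on the members was not tested, and in a bulk sample fewer cells of a type and less RNA per cell cannot be told apart.

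Rptor, the floxed gene, gave readings on its brightest probe set of 365 (WT), 353 and 412. WT lay between the pools, and the log2 difference was 0.059 ± 0.15 (SE; limma adjusted p = 0.852). A second, dimmer probe set read 30.8 in WT and 48.1 and 36.4 in the pools, and the faintest, at 21.9, 24.1 and 21.1, was under the filter. Where these probe sets lie relative to the floxed part of the gene is not given in the sources used here, so they check nothing about the deletion.

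Mtor, the catalytic subunit of both complexes, read 477 in WT and 417 and 445 in the pools on its brightest probe set. The log2 difference was -0.14 ± 0.13 (SE; limma adjusted p = 0.571). Its other kept probe sets did not settle a direction: on the second both pools were above WT (131, then 132 and 158), and on the dimmest WT lay between them (46.0, then 38.2 and 47.8). Mlst8, the subunit that steadies the kinase domain, read 171 in WT and 127 and 185 in the pools, again on either side of WT.

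Of the partners found in mTORC1 alone, Akt1s1, which encodes the inhibitor PRAS40, read 273 in WT and 249 and 250 in the pools. Its dimmer kept probe set differed in the other direction, at 37.6 in WT and 56.7 and 41.6. Rptor and Akt1s1 together had 4 kept probe sets, none past the test.

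The mTORC2 partners had 8 kept probe sets, with both pools above WT on 5, below it on 1 and on either side of it on 2; none passed. Rictor read 565 in WT and 587 and 659 in the pools on its brightest probe set, and its 4 kept probe sets ranged from 0.0016 to 0.45 in log2 difference. The highest of these rested on 1 pool, with readings of 173 in WT and 321 and 182. Mapkap1, which encodes the substrate-binding subunit SIN1, read 306 in WT and 257 in each pool on its brightest probe set. The other stood at 213, 226 and 211, with WT between the pools.

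Prr5l, a rictor-binding protein, had the highest difference of the mTORC2 partners. It read 201 in WT and 330 and 279 in the pools, a log2 difference of 0.56 (limma adjusted p = 0.0848), and its second kept probe set read 59.9, then 69.9 and 91.2. Both pools were above WT on both probe sets, and neither passed. Tbc1d7, a subunit with TSC1 and TSC2 of the complex that inactivates Rheb, read 136 in WT and 69.8 and 93.8 in the pools (log2 difference -0.64, adjusted p = 0.106), while its dim probe set read 32.2, then 38.8 and 37.3. The 2 probe sets of Tbc1d7 thus lay on opposite sides of WT.

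**Figure D2:**
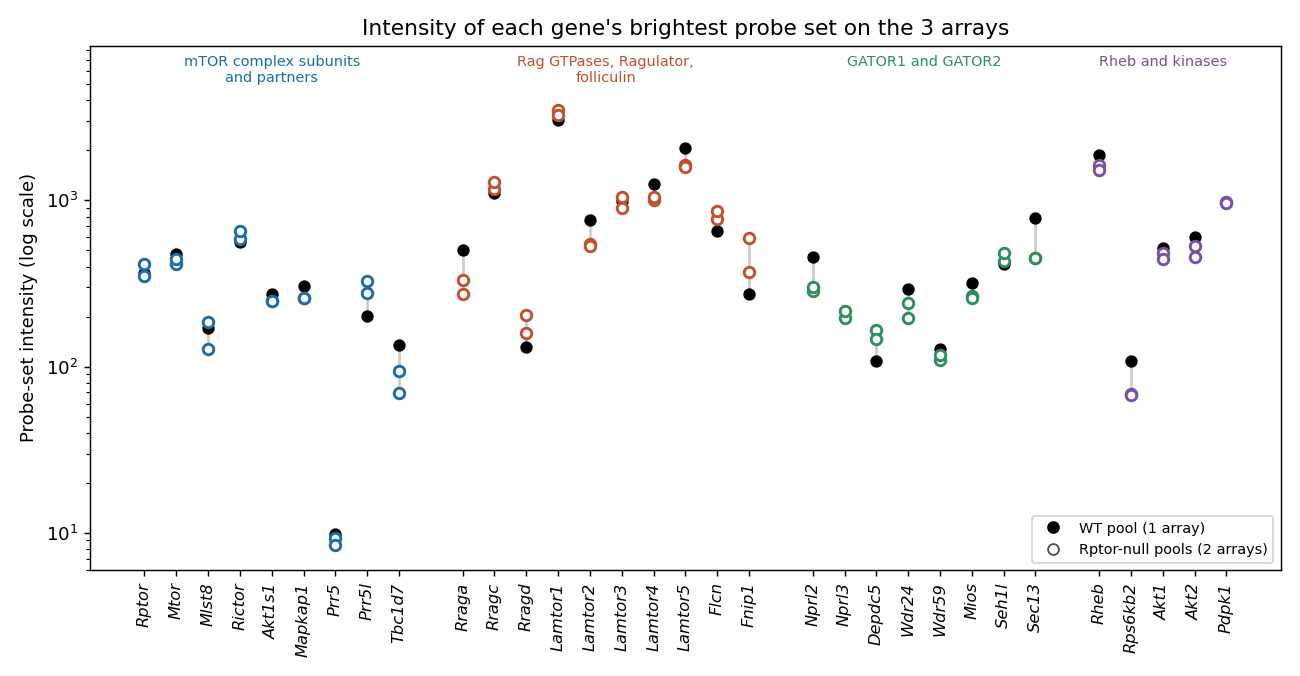
Probe-set intensity (vertical, log scale) of the brightest probe set of each of 32 genes is shown for the WT array (black) and the 2 Rptor-null arrays (open, coloured by group). The open points lie below the black point for Rraga (272 and 333 against 502), Nprl2 (285 and 303 against 457) and Sec13 (448 and 453 against 787), and levels are not comparable between genes.

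The 3 genes that fell are shown with the 250 bases upstream of their start sites because they are the members that passed the test. Sequences are from RefSeq (GRCm38.p6), 5' to 3' on the gene's strand, with coordinates and strand beside each name; each window ends at the base before the gene's start, and what else is annotated there was not analysed here. Capitals mark CCGGAAG or its reverse complement CTTCCGG, a core bound by ETS factors; CACGTG, the E-box core bound by MYC and by the TFEB family, was searched too.
Rraga chr4:86575423-86575672 (+): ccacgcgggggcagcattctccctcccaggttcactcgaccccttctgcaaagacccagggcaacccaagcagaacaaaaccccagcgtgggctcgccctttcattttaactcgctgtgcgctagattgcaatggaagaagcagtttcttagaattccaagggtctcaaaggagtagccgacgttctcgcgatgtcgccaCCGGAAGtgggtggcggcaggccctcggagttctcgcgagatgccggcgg
Nprl2 chr9:107541959-107542208 (+): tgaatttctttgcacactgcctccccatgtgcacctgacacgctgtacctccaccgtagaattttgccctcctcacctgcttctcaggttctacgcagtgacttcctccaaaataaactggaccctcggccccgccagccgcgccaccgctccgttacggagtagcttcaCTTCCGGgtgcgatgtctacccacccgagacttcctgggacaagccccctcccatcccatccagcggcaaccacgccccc
Sec13 chr6:113740682-113740931 (-): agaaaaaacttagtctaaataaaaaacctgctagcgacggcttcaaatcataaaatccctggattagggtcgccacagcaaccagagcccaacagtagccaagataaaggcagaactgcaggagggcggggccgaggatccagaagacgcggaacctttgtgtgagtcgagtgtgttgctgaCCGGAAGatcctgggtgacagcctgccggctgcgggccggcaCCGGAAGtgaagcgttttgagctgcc

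Both motifs were searched on both strands in 39 windows of 30 member genes, and no match of one overlapped a match of the other. CCGGAAG was in 6 windows of 6 genes (15.4%, against 6.91% of all 32851 windows of that length): Rraga, Nprl2, Sec13, Mtor, Akt1s1 and Mapkap1. All 3 genes that fell hold it, Sec13 at 68 and 26 bases before the start, Nprl2 at 80 and Rraga at 50, and so do 3 genes that did not pass the test. CACGTG was in 7 windows of 7 genes (17.9%, against 6.02% of all windows): Tbc1d7, Rragb, Rragc, Lamtor1, Lamtor4, Fnip1 and Rheb. These genes lay on both sides of WT: on the brightest probe set both pools were above WT for Rragc, Lamtor1 and Fnip1 and below it for Tbc1d7, Lamtor4 and Rheb, and Rragb was not measured here. Both motifs were chosen with the expression values known, and a match is a description of letters, not of binding. The windows behind the background shares were not limited to expressed genes, and some member genes had several windows. Whether the members' shares exceed those of other expressed genes was not tested.

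Rraga encodes RagA, the GTPase that recruits mTORC1 through raptor. It read 502 in WT, and the Rptor-null pools, at 272 and 333, were both well below that. The mean in the pools was 303 ± 43.5, a log2 difference of -0.71 ± 0.16 (SE) or 1.63-fold lower (limma adjusted p = 0.0452). The call was lost under 4 of 9 refits (no filter, quantile normalization, no variance trend, and without probe sets marked as cross-matching), with adjusted p between 0.0514 and 0.0905 in those.

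Of the other Rag genes, Rragc and Rragd were measured, and both stood above WT. Rragc, for RagC, read 1103 in WT and 1170 and 1296 in the pools. Rragd, for RagD, read 131 in WT and 206 and 160 (log2 difference 0.42, limma adjusted p = 0.236). RagC or RagD pairs with RagA or RagB in each Rag dimer, and neither of these 2 genes passed the test. Whether Rraga differed from them in its change was not tested.

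Folliculin and FNIP1 activate the Rag dimer through RagC and RagD. Flcn read 655 in WT and 777 and 858 in the pools on its brightest probe set, and 316, then 394 and 372, on the next. Fnip1 read 275 in WT and 594 and 372 on its brightest, the highest member difference (log2 0.74, limma adjusted p = 0.126), with the pools 1.07 and 0.41 above WT. Its second probe set read 299, then 322 and 393, and the dimmest 87.5, then 96.8 and 100.4.

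With Rragc and Rragd these genes had 7 kept probe sets, on all of which both pools were above WT, with a median log2 difference of 0.26 and 0 past the test; that direction on all 7 was the same after median centring and after quantile normalization. At an unadjusted p under 0.05, 2 of the 7 were higher in limma, beside 8.57% of all kept probe sets. This grouping was made after the values were seen, so the shared direction and these counts restate how it was formed and lend it no support. Fnip2, the FNIP1 paralogue and no member, read 63.9 in WT and 108 and 129 in the pools (adjusted p = 0.0534).

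Ragulator is a pentamer that holds the Rag GTPases on the lysosome. Its 5 genes had 9 kept probe sets, with both pools above WT on 4, below it on 4 and on either side on 1, and none passed. Lamtor2, which encodes p14, read 761 in WT and 548 and 534 in the pools on its brightest probe set, a log2 difference of -0.48 (limma adjusted p = 0.0551). In a fit of 1 probe set per gene, the brightest, it passed with an adjusted p of 0.0310; that fit called 5 of the 31 member genes lower and 0 higher, beside 11.1% and 3.93% of all 12721 genes. Its dim probe set stood above WT, at 54.2, then 64.9 and 70.9.

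Lamtor5 split in the same way, at 2065 in WT and 1643 and 1585 in the pools on its brightest probe set (adjusted p = 0.0747, and 0.0456 over 1 probe set per gene), but at 1665, then 1994 and 1774, on the second. Lamtor4 read 1261 in WT and 1004 and 1045 in the pools. Lamtor3, encoding MP1, read 993, then 1046 and 895, with WT between the pools. Lamtor1, the membrane anchor of the complex, read 3050 in WT and 3502 and 3271 on its brightest probe set and 2505, then 2924 and 2942, on the next, but 616, then 521 and 495, on its dimmest. Of the 5 genes, Lamtor1, Lamtor2 and Lamtor5 thus had probe sets on both sides of WT. The median over the 9 was -0.037 and turned to 0.074 after quantile normalization.

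**Figure D3:**
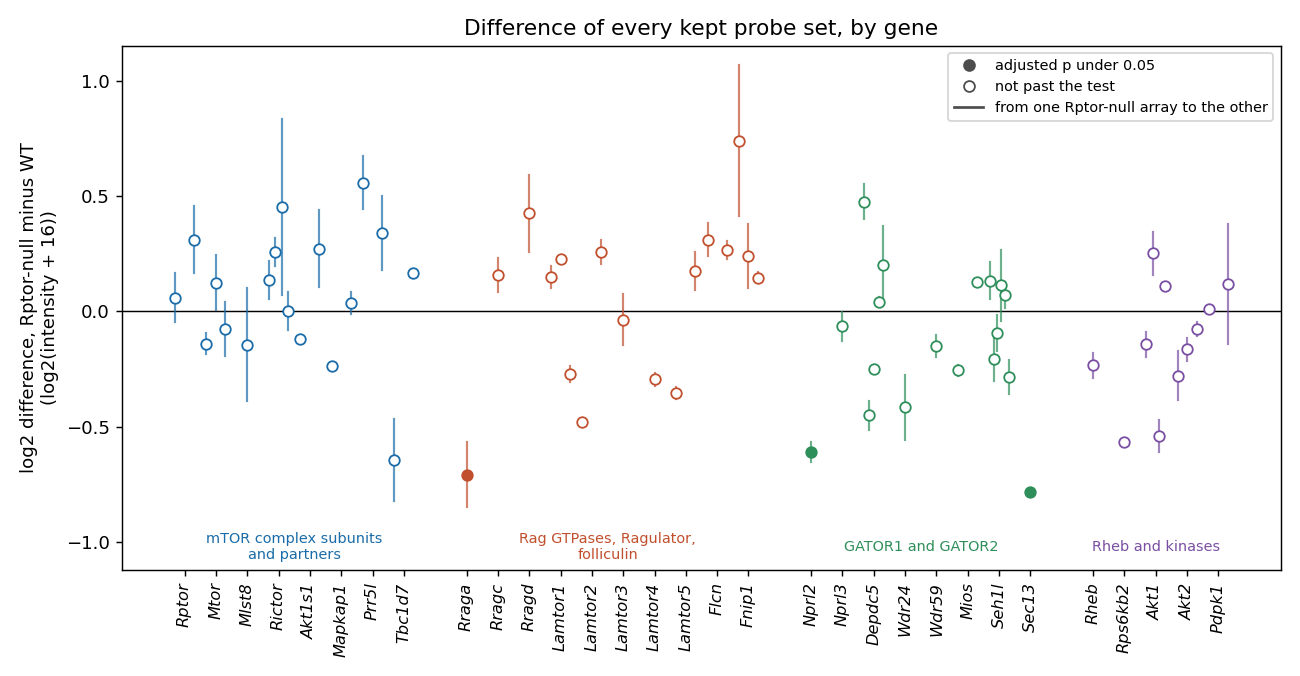
Each point is the mean log2 difference (Rptor-null minus WT, vertical) of 1 of the 64 kept probe sets, set by gene along the horizontal axis, and its line runs from the value of one Rptor-null array to that of the other. Filled points (Rraga -0.71, Nprl2 -0.61, Sec13 -0.78) passed the test, and several genes, such as Depdc5 (-0.45 to 0.48), Tbc1d7 (-0.64 to 0.17) and Akt1 (-0.54 to 0.25), have probe sets on both sides of 0.

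GATOR had 18 kept probe sets of 8 genes, with a median log2 difference of -0.12. The test called 2 of them lower (11.1%) and 0 higher, beside 6.11% and 2.81% of all kept probe sets. Both pools were below WT on 11 and above it on 6, where the shares over all kept probe sets were 43.9% and 35.8%. GATOR1 is the GTPase-activating complex for RagA and RagB, formed by Nprl2, Nprl3 and Depdc5. Nprl2, its catalytic subunit, read 457 in WT and 285 and 303 in the pools, both below WT. The mean was 294 ± 13.4, a log2 difference of -0.61 ± 0.14 (SE) or 1.53-fold lower (limma adjusted p = 0.0433), and the call was lost under 3 of 9 refits (no filter, quantile normalization and no variance trend), with adjusted p between 0.0711 and 0.0829 in those.

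The other GATOR1 subunits did not pass. Nprl3 read 215 in WT and 196 and 215 in the pools. Depdc5, the largest subunit, had 5 kept probe sets that ranged from -0.45 to 0.48. Its brightest read 107 in WT and 165 and 147 in the pools, and the next read 106, then 69.2 and 77.2. These 2 probe sets of 1 gene differed from WT by similar amounts in opposite directions in both pools.

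GATOR2, which opposes GATOR1, had 11 kept probe sets, 1 lower and 0 higher. Sec13, a WD-repeat protein that also serves in the COPII coat of transport vesicles and in the nuclear pore, read 787 in WT and 448 and 453 in the pools, which lay close together and far below WT. The mean was 451 ± 4.09, a log2 difference of -0.78 ± 0.12 (SE) or 1.72-fold lower (limma adjusted p = 0.0170). It held under 8 of 9 refits, with adjusted p from 0.00754 to 0.0300, and was lost without the variance trend, at 0.0591.

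Wdr24 read 295 in WT and 195 and 241 in the pools (log2 difference -0.42, limma adjusted p = 0.199), and Wdr59 read 128, then 110 and 118. Mios read 317 in WT and 268 and 258 on its brightest probe set, but 185, then 205 and 203, on the other. Seh1l, which like Sec13 is also a nuclear pore protein, had 6 kept probe sets, 3 above and 3 below 0, from -0.28 to 0.13; its brightest read 417 in WT and 433 and 486 in the pools. The fall of Sec13 had no counterpart past the test among its GATOR2 partners.

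Rheb, the GTPase that switches mTORC1 on, read 1863 in WT and 1644 and 1521 in the pools (log2 difference -0.23, limma adjusted p = 0.225). Rps6kb2, for the S6 kinase S6K2 that mTORC1 phosphorylates, read 108 in WT and 68.3 and 67.5 in the pools. Both pools were well below WT and close together, with a log2 difference of -0.57 (adjusted p = 0.0885).

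Akt1 read 514 in WT and 482 and 447 in the pools on its brightest probe set, and its 4 kept probe sets ranged from -0.54 to 0.25, with 2 on each side of 0. Akt2 read 602 in WT and 457 and 532, and all 3 of its kept probe sets were below WT in both pools, from -0.28 to -0.078. Pdpk1, for the kinase PDK1 that phosphorylates AKT and S6K in their activation loops, read 965 in WT and 972 and 969 in the pools on its brightest probe set. The second read 280, then 369 and 252, with WT between the pools. None of these kinase probe sets passed.

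Of the 18 member genes with at least 2 kept probe sets, 6 had all of them above 0 (Rptor, Rictor, Prr5l, Flcn, Fnip1 and Pdpk1), 1 had all below (Akt2) and 11 had them on both sides. That is 38.9% on a single side, beside 50.9% of the 5635 such genes on the array. All 3 genes that passed have a single probe set, so none of the calls has a second probe set to set beside it. On the brightest probe set of each of the 31 genes, both pools were below WT for 18 and above it for 10. The shares of all genes on that basis were not counted. Over all kept probe sets they were 43.9% below and 35.8% above. The median log2 difference of the 31 was -0.14, of the other sign from that over all 64 probe sets. Over all 12721 genes with 1 probe set each the median was -0.060.

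Other genes of the pathway were taken from lists on which the members do not stand, by their brightest probe set. The filter kept 11 mTORC1 brakes, and 2 of these rose, 1 fell and 8 did not pass. Over all kept probe sets the same test called 2.81% higher and 6.11% lower. In the fit of 1 probe set per gene these shares were 3.93% and 11.1%. Ddit4, a stress-induced inhibitor, read 628 in WT and 1211 and 1463 in the pools (limma adjusted p = 0.0121), and Deptor, an inhibitor that binds mTOR, 130, then 209 and 241 (adjusted p = 0.0470). Sesn3, a sestrin that acts through GATOR2, was lower, at 1719 in WT and 1067 and 1219 (adjusted p = 0.0333). The arginine sensor Castor1 read 469, then 373 and 357 (adjusted p = 0.163), and Tsc1 345, then 326 and 336.

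Of 10 further genes of nutrient sensing, 1 was higher, 1 lower and 8 not past the test. The shares over all kept probe sets were 2.81% higher and 6.11% lower. In the fit of 1 probe set per gene they were 3.93% and 11.1%. Atp6ap1, an accessory subunit of the lysosomal proton pump, read 1384 in WT and 1893 and 1951 in the pools (limma adjusted p = 0.0349). Its only kept probe set is of the cross-matching kind, so it had no value in the refit without those. Slc1a5, a glutamine transporter, read 814, then 504 and 568 (adjusted p = 0.0404). Slc38a9, the lysosomal arginine sensor, read 167, then 169 and 214 (adjusted p = 0.635).

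Of 24 mTOR targets, 3 were higher, 3 lower and 18 not past the test. Of all kept probe sets 2.81% were called higher and 6.11% lower. In the fit of 1 probe set per gene these shares were 3.93% and 11.1%. Only RNA was measured, so the activity of mTOR or of these proteins was not read here. Sgk1 and Ndrg1, a kinase activated through mTORC2 and its substrate, read 1291 in WT and 1852 and 2044 in the pools (limma adjusted p = 0.0253) and 315, then 564 and 588 (adjusted p = 0.0159). Eef2k, the elongation factor 2 kinase, read 176, then 303 and 275 (adjusted p = 0.0456). Lower were Eif4e, the cap-binding factor, at 931 in WT and 390 and 411 (adjusted p = 0.0102), Hif1a at 4061, then 2969 and 2933 (adjusted p = 0.0273), and Atf4, the amino acid response factor, at 3780, then 2891 and 2681 (adjusted p = 0.0381). The 2 kept probe sets of Atf4 lay on opposite sides of 0, and without cross-matching probe sets Ndrg1 differed by 0.12 and Eef2k by 0.34, neither past the test. After quantile normalization the calls of Sesn3, Slc1a5 and Atf4 were lost, and Lpin1, not past the test as deposited, was called higher. Without the filter the calls of Deptor, Sesn3, Slc1a5, Atp6ap1, Eef2k and Atf4 were lost. Without cross-matching probe sets that of Deptor was lost too (limma adjusted p = 0.0538). Without a variance trend all 11 calls were lost. The median log2 differences of the 3 lists were -0.22, -0.052 and 0.017, beside -0.029 over all kept probe sets; after quantile normalization they were -0.11, 0.048 and 0.12.

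**Figure D4:**
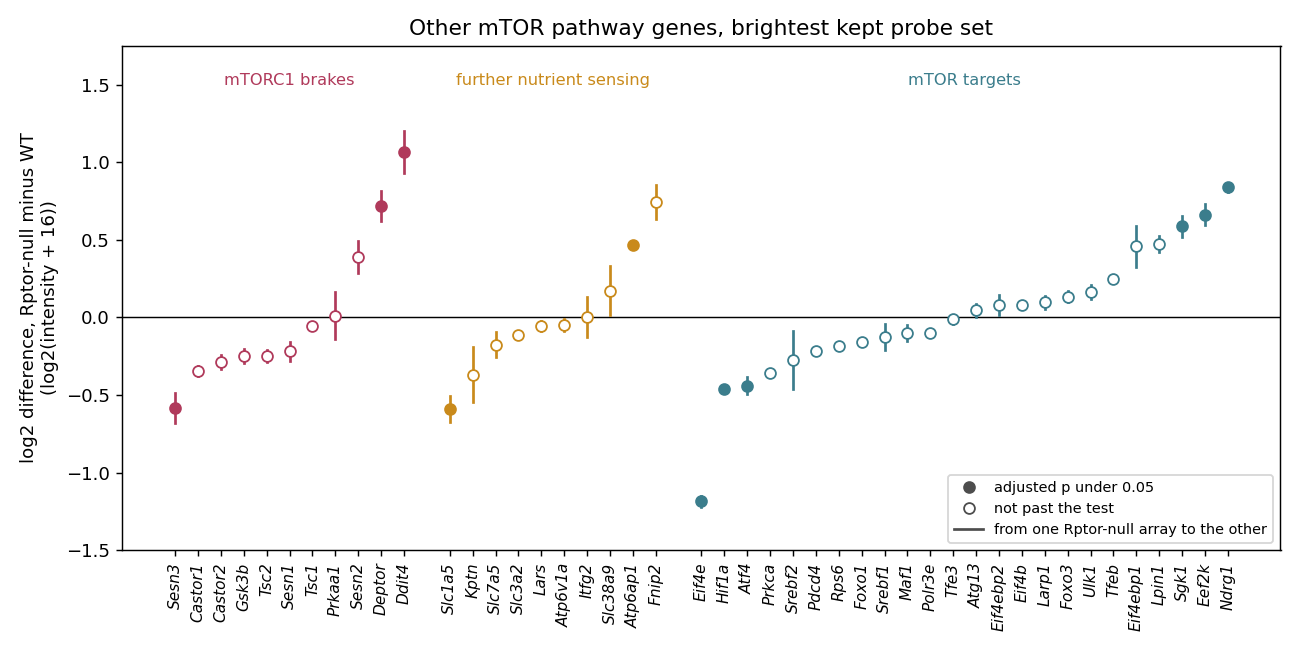
Points give the log2 difference (Rptor-null minus WT, vertical) of other mTOR pathway genes on their brightest probe set, ordered by value within 3 lists, and lines run between the 2 Rptor-null arrays. Filled points passed the test: Ddit4 (1.07) and Deptor (0.72) are highest among the brakes, and Eif4e (-1.19) is lowest among the targets.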

How the data were processed

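The deposited values are probe-set intensities on a linear scale. The submitters' processing notes name MAS5, without a version or role. The summary method and any scaling before deposit are not given in the sources used here. Array medians were 52.7 to 54.9. Depth has no count on arrays, and their number limits the precision.

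Of 45037 probe sets other than 64 controls, 34945 named 1 gene, 932 several and 9160 were unnamed here; symbols were updated through gene IDs. Intensities became log2(intensity + 16), and a probe set was kept where the average of both group means exceeded its 40th percentile (35.0 units), which left 27022. Rptor-null was compared with WT in limma 3.58.1 (R 4.3.3; lmFit, eBayes with a trend, two-sided, 1 residual and 5.85 prior degrees of freedom), with Benjamini-Hochberg adjustment over all kept probe sets. The labels call the Rptor-null arrays biological replicates. On 20 simulated sets of 27022 probe sets the fit recovered 91.3% of log2 changes of 1 and 20.3% of those of 0.5, and 6.34% of its calls were false. Each set had 200 changed probe sets. Its noise was normal, of 1 size for probe sets of similar intensity, taken from the Rptor-null arrays and given to WT too. In the data 8.92% of probe sets were called and the spread of WT is unknown, so these shares need not hold there.

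The members, lists, alternatives and naming rule were chosen with earlier results of these data known. Every member could be named with its brightest probe set on each array; statistics were planned for Rptor, Mtor and members past the test or 1.5-fold apart, and those of other members were added after their values were seen. Other pathway genes were to be named where they passed; those named without passing were chosen after their values were seen. The marker lists were for T, Tfr, macrophage, basophil, B, neutrophil, dendritic, NK and CD8, and erythroid cells.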

Additional observations from a re-analysis of the deposited data

How the results depend on the processing

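The number of member probe sets called higher was 0 under each of the 9 refits. The number called lower, 3, was 1 without the filter and 1 after quantile normalization, 0 without a variance trend, 5 after median centring and 5 with 1 probe set per gene, where Lamtor2 and Lamtor5 also passed. The count at least 1.5-fold lower, 1, was 3 with a pseudocount of 4 and 4 after median centring. With a single Rptor-null array left in, it was 1 to 5, and the count at least 1.5-fold higher was 0 to 4; the larger counts, 5 and 4, were those without the second array. The members' median log2 difference, 0.023, was -0.018 with the 60th percentile filter, -0.022 after median centring, 0.069 after quantile normalization, -0.14 with 1 probe set per gene, and -0.019 to 0.033 with an array left out. It therefore has no settled sign.

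Of 31 genes, 24 kept their direction on the brightest probe set under every alternative that held them. The filter changes, the fit without a variance trend and that with 1 probe set per gene leave this value as it was. They could therefore not reverse a direction. Of the 24 genes, 3 had no value under some alternatives. These were Rragc, Lamtor5 and Rps6kb2 without cross-matching probe sets, and Rps6kb2 also with the 60th percentile filter. Rptor ran from -0.048 to 0.17, Mlst8 from -0.39 to 0.099 and Lamtor3 from -0.15 to 0.074 with an array left out. After quantile normalization Lamtor3 was 0.074 and Nprl3 0.016, after median centring Pdpk1 was -0.036, and without cross-matching probe sets Lamtor1 was -0.27 and Seh1l -0.21. Over the whole array 31.5% of calls were higher as deposited, 24.3% after median centring and 47.1% after quantile normalization. Without a variance trend, where 0 member calls were made, the whole array had 1 call higher and 1 lower. Alternatives for other pathway genes were added after seeing the data. The cause of these shifts was not tested. No paired analysis was possible because WT had 1 array and the labels number only the Rptor-null arrays. With 1 array left in each group there is no test.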
